A study of Mus musculus with 6 samples.

Results

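The genes described here are the lysosomal hydrolases, lysosomal membrane proteins and sorting machinery of mouse macrophages. They were taken as the rows that the deposited table annotates with the KEGG pathway Lysosome, leaving out the cathepsins (18 rows), the V-ATPase subunits named Atp6 (9 rows) and Slc11a1, Slc11a2 and Acp5. This gave 112 of the 142 Lysosome rows, in a table of 22063 genes. The rule uses the annotation and no measured value.

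RNA sequencing covered 2 groups of macrophages into which a lentivirus had brought a chimeric antigen receptor (CAR), a man-made surface protein that points a cell at a chosen target. The 3 CAR-Ms samples are labelled WT and the 3 CAR-Trem2-Ms samples TERM2+, and in both the tissue is given as skin, the cell type as macrophage and the culture as 7 days in DMEM with 20 ng/mL M-CSF, a macrophage growth factor. The labels of CAR-Trem2-Ms alone add 1 µM VD3 for 24 h and sorting by flow cytometry, but a protocol that every sample shares names VD3 too. Whether CAR-Ms received VD3 is therefore not settled by the labels, and Trem2 status, sorting and possibly VD3 cannot be told apart. The labels give neither age, strain, the target of the receptor nor whether replicates are separate cultures or animals, and p-values therefore speak only of sample-to-sample spread, part of which may be technical.

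Lysosomes are acidic organelles in which enzymes break down material that a cell has taken up or no longer needs, and macrophages, which engulf particles and dying cells, are rich in them. Most of the enzymes are tagged with mannose 6-phosphate in the Golgi, bound there by mannose 6-phosphate receptors, packed by GGA proteins, the AP-1 adaptor and clathrin, and released in the acidic endosome. Membrane glycoproteins such as LAMP1 shield the limiting membrane, and channels and transporters carry ions and digestion products across it. TFEB and its relatives TFE3 and MITF are transcription factors known to bind an E-box, the CLEAR element, in the promoters of many lysosomal genes.

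Promoters were searched for that element because it is the sequence these genes are known to share. RefSeq promoters on GRCm38.p6, each 300 bases from 250 before the start to 50 after it, matched 87 of the 112 genes by symbol. TCACGTGA, which reads the same on both strands and contains CACGTG, was found in the promoters of 7 of the 87 genes (8.05%), against 304 of 27025 genes in the whole promoter table (1.12%) and 205 of 9054 genes among those tested here (2.26%). CACGTG on its own was found for 18 of the 87 (20.7%), against 8.09% in the whole table and 12.0% among those tested. The longer form with G before TCACGTGA and C after it was found for 2 (2.30%), against 0.370% and 0.839%. The 7 genes were Cln3, Mcoln1 and Gnptg, which were higher in CAR-Trem2-Ms, Cd164, Gla and Igf2r, which were lower, and Sumf1, which passed in neither direction. Stretches before the start of the 6 called genes are given on the strand of the gene, with the match in capitals and the build mm10, which equals GRCm38.
Mcoln1, chr8:3500463-3500490, plus strand: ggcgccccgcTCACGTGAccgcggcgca
Cln3, chr7:126583341-126583368, minus strand: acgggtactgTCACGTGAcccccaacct
Gnptg, chr17:25240121-25240148, minus strand: cggctgtcacTCACGTGAccgtgagacc
Cd164, chr10:41519402-41519429, plus strand: gccgggctgcTCACGTGAccggcgcgcg
Gla, chrX:134601173-134601253, minus strand: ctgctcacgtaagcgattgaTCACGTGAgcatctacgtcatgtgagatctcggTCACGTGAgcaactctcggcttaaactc
Igf2r, chr17:12769707-12769775, minus strand: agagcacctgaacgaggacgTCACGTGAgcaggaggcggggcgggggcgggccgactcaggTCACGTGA
Gla held the element at 228 and at 195 bases before the start and Igf2r at 49 and at 8. Mcoln1 held it at 46, Gnptg at 22, Cd164 at 88 and Cln3 at 122. The stretches of Mcoln1, Cln3, Gnptg and Cd164 overlap an exon of their gene in the GENCODE M21 annotation, whose starts differ from those of RefSeq. Genes with the element thus lay on both sides of the comparison, and a match describes the sequence, not a bound site.

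Total counts per sample in units of 1e6 were 14.2, 15.9 and 14.5 for CAR-Ms and 12.6, 9.80 and 12.2 for CAR-Trem2-Ms. Trem2 itself stood at 78.7, 74.1 and 77.0 CPM across CAR-Ms against 196, 195 and 182 across CAR-Trem2-Ms (log2 fold change 1.32 ± 0.04) and at 153 ± 4.23 TPM for CAR-Ms against 233 ± 8.38 for CAR-Trem2-Ms (SD, n = 3), so the libraries carried more Trem2 RNA under the Trem2 label. Genes encoded by the mitochondrial genome took 4.60% to 4.70% of the counts in CAR-Ms against 13.4% to 13.8% in CAR-Trem2-Ms. Levels below are counts scaled to library size (CPM) after edgeR's TMM scaling, which corrects for differences in library make-up. Folds are log2 of CAR-Trem2-Ms over CAR-Ms with the standard error of edgeR's quasi-likelihood fit, and a gene is called at a Benjamini-Hochberg adjusted p under 0.05 over all 11402 genes tested. In such bulk samples, fewer cells of a type and less RNA per cell cannot be told apart.

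Of the macrophage markers, 7 of 8 were measurable, 5 called higher and 2 lower, while Mertk had 0 to 3 reads. Cd68, a lysosomal glycoprotein described below, is among the 8. The summed level of the 8 was 3468 ± 13.5 CPM in CAR-Ms against 3931 ± 12.5 in CAR-Trem2-Ms (SD, n = 3). In TPM the sum went the other way, at 4034 ± 61.5 in CAR-Ms against 2977 ± 29.3 in CAR-Trem2-Ms. On that scale 2 of these markers were called higher and 4 lower. Markers of other cell types stayed low beside these. B cell markers summed to 10.9 to 16.9 CPM in CAR-Ms against 3.43 to 4.46 in CAR-Trem2-Ms, and neutrophil markers to 15.5 to 27.4 and 2.22 to 4.99, with all 5 tested B cell markers and all 4 tested neutrophil markers lower. T cell markers, mostly Lck, summed to 19.9 to 23.6 and 16.6 to 24.5 CPM. Of the 3 tested, Lck was lower (-0.43 ± 0.13), and Cd3d and Trac were higher (3.65 ± 0.74 and 3.46 ± 0.69), from 0.0603 to 0.135 CPM in CAR-Ms against 0.920 to 1.59 in CAR-Trem2-Ms, through which alone they passed the read filter. Endothelial markers summed to 4.22 to 6.07 and 1.92 to 3.08, with 2 of 3 tested lower. Fibroblast markers summed to 1.71 to 2.76 and 3.18 to 4.18, and dendritic cell markers to 1.42 to 1.87 and 1.70 to 3.59. In TPM the mean sums in CAR-Ms and CAR-Trem2-Ms were 1 and 0.993 for fibroblast and 0.947 and 0.703 for dendritic cell markers. Markers of mast cells and keratinocytes were at or near 0, with at most 0.106 CPM in a sample. The part of these cells in the differences below was not tested.

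Of the 112 lysosomal genes, 10 had no read in any sample: the hyaluronidases Hyal4, Hyal5, Hyal6 and Spam1, together with Psapl1, Dnase2b, Lamp3, Ap3b2, BC051665 and Gm49352. No read in the 44.7 (in 1e6) counts of CAR-Ms or the 34.6 of CAR-Trem2-Ms allows up to 3 counts, or 0.0672 and 0.0867 CPM, for counting error only. Laptm4b, with 0 to 2 reads per sample, and Litafd, with 0 to 4, were too low to test. The remaining 100 genes were tested, and 78 of them were called, 40 higher and 38 lower in CAR-Trem2-Ms. That share of 78% stands beside 81.1% of all tested genes, of which 40.9% were higher and 40.1% lower. The median log2 fold change of the 100 genes was -0.03, beside 0.03 over all tested genes. At a change of at least 1 on the log2 scale there were 13 higher and 10 lower genes, beside 18.7% and 14.3% of all tested genes. The 2 groups of samples did not overlap for 79 of the 100 genes, beside 81.8% of all tested genes. Lysosomal genes thus changed about as often as other genes, in both directions, and the description that follows is of which roles lay on which side. Values in every sample are given mainly for called genes of largest fold per role whose groups did not overlap. For such genes the lack of overlap was a condition of the choice and is no further result.

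**Figure D1:**
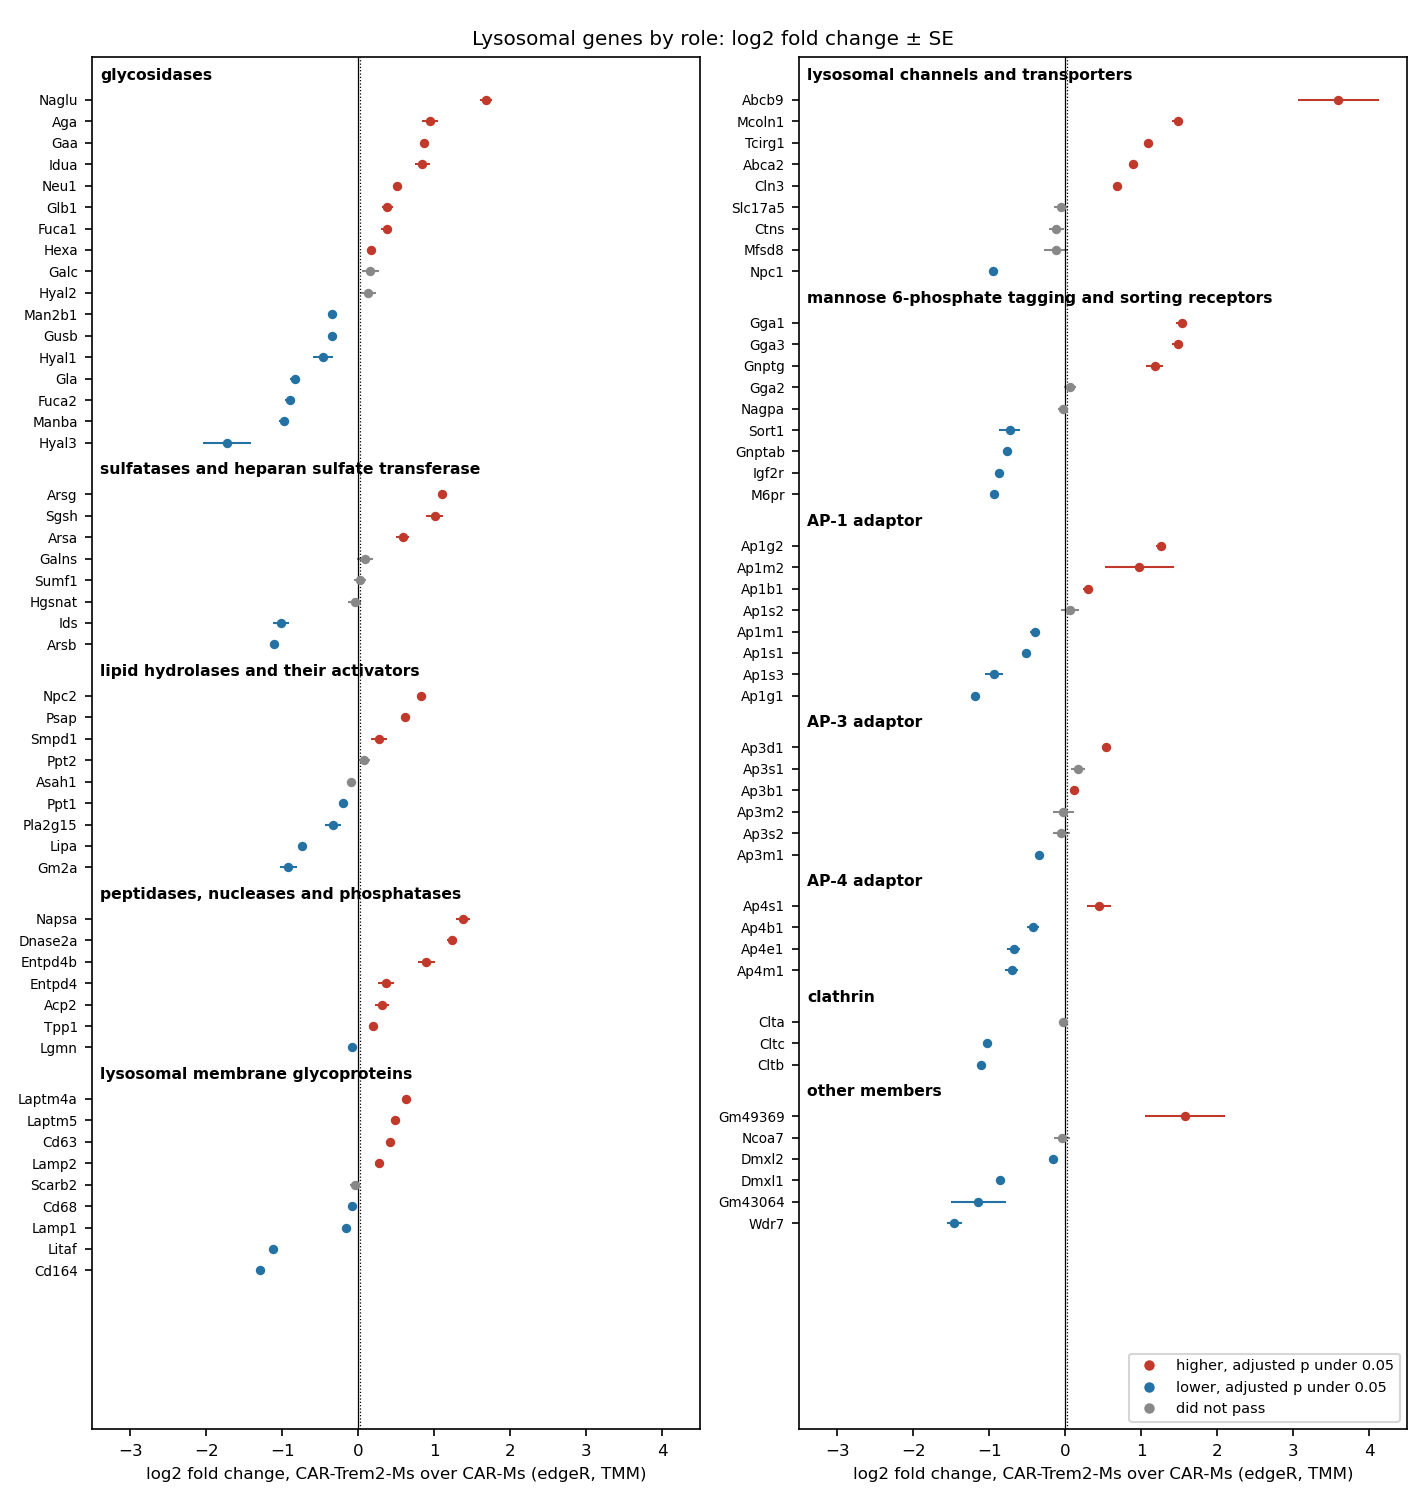
Log2 fold change of CAR-Trem2-Ms over CAR-Ms for 95 of the 100 tested lysosomal genes, grouped by role, as points with bars of 1 SE from edgeR on counts with TMM factors (3 samples per group). Red genes were called higher, blue genes lower and grey genes passed in neither direction, the solid line is 0 and the dotted line the median of all tested genes (0.03). On log2(TPM + 1), where that median is -0.63, 20 of the 40 genes called higher lie below 0.

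The summed level of the 112 genes was 10861 ± 44.9 CPM in CAR-Ms against 10630 ± 103 in CAR-Trem2-Ms (SD, n = 3), a ratio of 0.979. Per unit of length, 10 genes held 51.7% of the TPM of all 112, led by Cd68 (12.7%), Lamp1 (8.16%) and Clta (5.22%). TPM divides by gene length and by the length-scaled total of each library.

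The scale decided many directions, so it is set out before the genes. On the deposited TPM values the summed level of the same genes was 8162 ± 53.9 in CAR-Ms against 5099 ± 29.0 in CAR-Trem2-Ms, a ratio of 0.625. limma on log2(TPM + 1) called 13 of 98 lysosomal genes higher and 75 lower, against 17.5% and 64.2% of all genes tested on that scale. The median over all those genes was itself -0.63, and that of the lysosomal genes -0.69. Mitochondrially encoded genes took 12.8% to 13.1% of the TPM in CAR-Ms against 27.8% to 28.7% in CAR-Trem2-Ms. Without these genes the counts, with TMM factors that already correct for library make-up, gave the same 40 and 38 calls. That fit says nothing of the TPM values, which were not recomputed without these genes, so the part of this share in the TPM shift was not tested. Of the 76 called genes that also had a TPM test, 74 lay on the same side of that scale's median as of 0 on counts, the exceptions being Entpd4 and Acp2. Upper quartile factors moved the split the other way, to 59 higher and 29 lower, against 50.1% and 31.6% of all tested genes.

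The direction on counts was the same under RLE, upper quartile and total-count scaling and on TPM for 18 of the 40 higher genes and for 33 of the 38 lower genes. The 18 were Naglu, Aga, Gaa, Idua, Arsg, Sgsh, Npc2, Napsa, Dnase2a, Entpd4b, Mcoln1, Tcirg1, Abca2, Gga1, Gga3, Gnptg, Ap1g2 and Gm49369. On TPM 13 of the 18 also passed, while Idua, Entpd4b, Gm49369, Sgsh and Abca2 did not (limma, adjusted p = 0.209, 0.194, 0.253, 0.0595 and 0.0543). Abcb9 and Ap1m2, both at low levels, had no TPM test. The 5 lower genes that changed sign under upper quartile factors were Ppt1, Lgmn, Cd68, Lamp1 and Dmxl2. Where a gene of the 40 outside the 18 is named by role below, its value or range on log2(TPM + 1) is given, except for Abcb9 and Ap1m2. For neighbouring genes outside the lysosomal set, TPM results are given mainly per list. Most single genes named there have no TPM value beside them, so their direction on that scale is not stated.

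**Figure D2:**
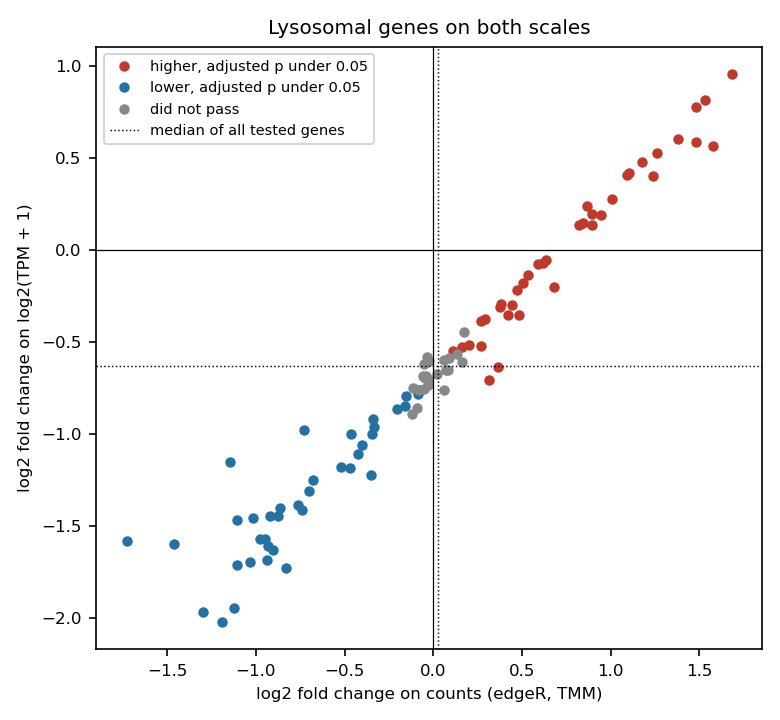
Log2 fold change on counts (horizontal axis, edgeR with TMM factors) against log2 fold change on log2(TPM + 1) (vertical axis, limma-trend) for the 98 lysosomal genes tested on both, coloured by the call on counts. Dotted lines mark the medians of all tested genes, 0.03 and -0.63, and the points lie along a line that passes below the crossing of the 0 axes.

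Glycosidases, which trim sugars from glycoproteins, glycolipids and glycosaminoglycans, were split. Of the 20 tested, 9 were higher and 7 lower, with a median of 0.15 on counts and -0.59 on TPM. The largest increase was in Naglu (chr11:101070012-101077672, plus strand), the α-N-acetylglucosaminidase of heparan sulfate breakdown, at 24.2, 28.4 and 27.6 CPM across CAR-Ms against 90.6, 77.8 and 88.8 across CAR-Trem2-Ms. Each CAR-Trem2-Ms sample exceeded every CAR-Ms sample, and the log2 fold change was 1.68 ± 0.08 (edgeR, adjusted p = 7.83e-18). Gaa, the acid α-glucosidase that digests glycogen, rose from 102 ± 4.49 to 187 ± 2.17 CPM (SD, n = 3; 0.87 ± 0.04). Aga, which cleaves the link between sugar and asparagine, rose by 0.94 and Idua, the α-L-iduronidase, by 0.84 on the log2 scale.

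Both mannosidases and 5 other glycosidases lay on the lower side. Manba, the lysosomal β-mannosidase (chr3:135485611-135571404, plus strand), stood at 85.8, 88.6 and 82.5 CPM across CAR-Ms against 41.0, 45.2 and 44.9 across CAR-Trem2-Ms, with no overlap between the groups (-0.97 ± 0.06). Hyal3, a hyaluronidase with few reads, was at 3.64, 4.58 and 4.81 CPM across CAR-Ms against 1.09, 1.59 and 1.28 across CAR-Trem2-Ms (-1.73 ± 0.32), and its exons overlap those of Hyal1 and Naa80 on the same strand. Gla, the α-galactosidase A whose promoter holds 2 copies of the element, fell from 82.0 ± 1.92 to 46.1 ± 0.663 CPM (-0.83 ± 0.06). Fuca2 fell by 0.90 and Man2b1 by 0.34 on the log2 scale. Gusb, β-glucuronidase, was at 304, 306 and 322 CPM across CAR-Ms against 245, 242 and 247 across CAR-Trem2-Ms (-0.34 ± 0.03), a small difference next to the tight spread within each group.

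Other glycosidases were called higher on counts but lower on TPM. Hexa, which takes part in the breakdown of GM2 ganglioside and had the highest CPM among the higher glycosidases, was at 248, 253 and 247 CPM across CAR-Ms against 286, 274 and 276 across CAR-Trem2-Ms (0.16 ± 0.03; -0.53 on TPM). Neu1, the sialidase, Glb1, the β-galactosidase, and Fuca1, an α-fucosidase, had 0.38 to 0.50 on counts and -0.31 to -0.18 on TPM. Galc, the galactosylceramidase, and Hyal2 passed in neither direction on counts (0.16 and 0.13).

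Sulfatases, their activating factor Sumf1 and the heparan sulfate acetyltransferase, 9 genes, gave 3 higher and 3 lower calls, and 3 did not pass. Arsg, arylsulfatase G (chr11:109473374-109573330, plus strand), was at 55.0, 55.1 and 54.3 CPM across CAR-Ms against 117, 117 and 120.1 across CAR-Trem2-Ms (1.11 ± 0.05). Sgsh, the heparan N-sulfatase, was at 16.4, 15.3 and 16.5 CPM across CAR-Ms against 27.3, 35.1 and 34.5 across CAR-Trem2-Ms (1.01 ± 0.11), with 21.6% of its exon bases shared with Card14 on the other strand. Their levels were 2.15 and 2.01 times those of CAR-Ms, and the groups did not overlap. Arsa, the sulfatase of sulfatide, had 0.59 ± 0.09 on counts and -0.08 on TPM.

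Other sulfatases moved the other way. Arsb, arylsulfatase B of dermatan sulfate breakdown (chr13:93771630-93943016, plus strand), was at 104, 101 and 99.1 CPM across CAR-Ms against 51.4, 43.7 and 45.4 across CAR-Trem2-Ms (-1.11 ± 0.06). Ids, the iduronate sulfatase that acts just ahead of Idua, was at 32.0, 32.0 and 34.9 CPM across CAR-Ms against 16.3, 17.9 and 14.9 across CAR-Trem2-Ms (-1.02 ± 0.10), and both were lower in every CAR-Trem2-Ms sample. Galns, Hgsnat and Sumf1, the factor that activates all sulfatases, passed in neither direction (0.09, -0.05 and 0.02). Heparan sulfate degradation alone therefore had genes on both sides, such as Naglu, Sgsh and Idua higher and Ids lower. These are examples and not the full list of its enzymes.

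Among lipid hydrolases and their activators, 3 of 9 tested were higher and 4 lower, with a median of -0.09 on counts and -0.86 on TPM. Npc2, the soluble protein that hands cholesterol to the membrane transporter Npc1 (chr12:84754562-84773152, minus strand), was at 169, 164 and 175 CPM across CAR-Ms against 315, 286 and 295 across CAR-Trem2-Ms (0.82 ± 0.04; 0.13 on TPM). Psap, the precursor of the saposins that present sphingolipids to their enzymes, was at 474, 464 and 463 CPM across CAR-Ms against 725, 698 and 729.9 across CAR-Trem2-Ms (0.62 ± 0.02), but its TPM hardly differed (-0.07). Smpd1, the acid sphingomyelinase, had 0.27 ± 0.10 (edgeR, adjusted p = 0.0186) and -0.39 on TPM. The Smpd1 call was lost without CAR-Ms replicate 1, CAR-Ms replicate 2 or CAR-Trem2-Ms replicate 2, at adjusted p 0.0715, 0.0598 and 0.0571.

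Lipa, the acid lipase that frees cholesterol from its esters (chr19:34492318-34527474, minus strand), was at 287, 297 and 297 CPM across CAR-Ms against 181, 178 and 169 across CAR-Trem2-Ms (-0.74 ± 0.03). Gm2a, the activator that lifts GM2 ganglioside out of the membrane for breakdown, was at 36.2, 39.4 and 38.2 CPM across CAR-Ms against 23.6, 21.0 and 15.5 across CAR-Trem2-Ms (-0.92 ± 0.11). Both were lower in every CAR-Trem2-Ms sample and on each scale tried. Pla2g15 and Ppt1 fell by 0.33 and 0.20, with Ppt1 at 0.03 under upper quartile factors, while Asah1, the acid ceramidase, and Ppt2 did not pass (-0.09 and 0.07). The result for Asah1 rests on the setting: it was called lower without CAR-Ms replicate 3 (-0.13), with RLE factors (-0.11), total-count scaling (-0.22) or no filter (-0.13) and on TPM (-0.86), and higher with upper quartile factors (0.14).

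**Figure D3:**
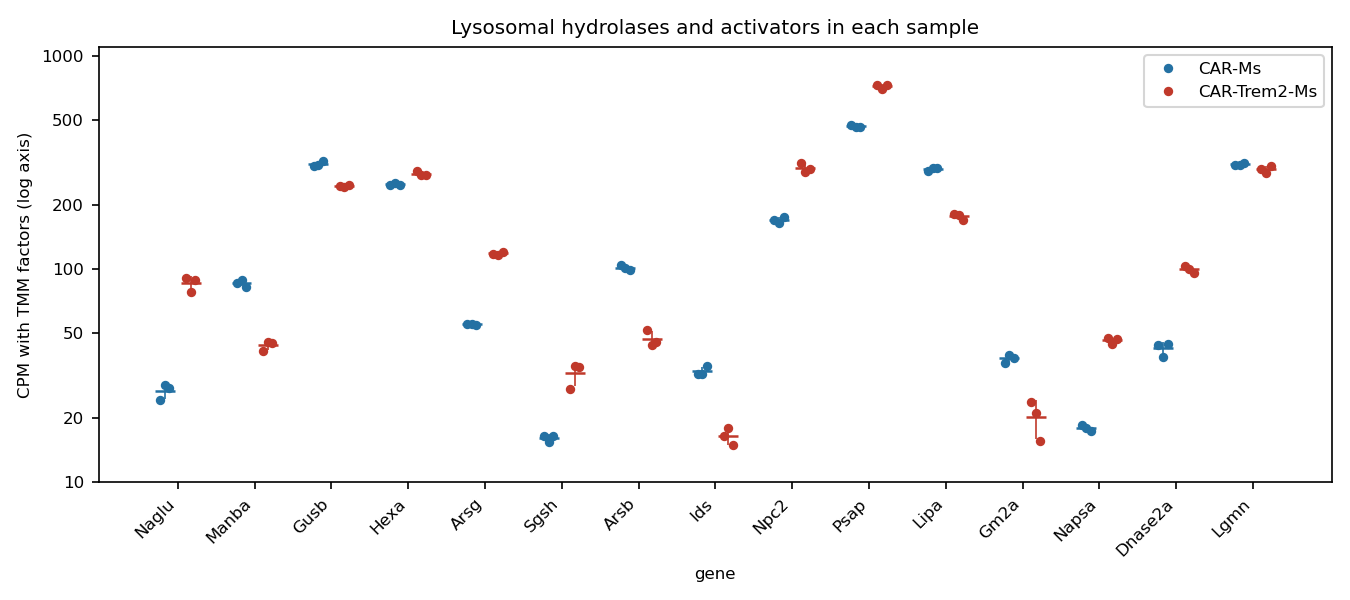
CPM with TMM factors on a log axis for 15 lysosomal hydrolases and activators, with 1 point per sample, a horizontal line at the mean and a vertical line of ± 1 SD (n = 3 per group). Naglu, Arsg, Sgsh, Npc2, Psap, Napsa and Dnase2a lie higher in CAR-Trem2-Ms and Manba, Arsb, Ids, Lipa and Gm2a lower, with no overlap between the groups; on TPM Psap and Hexa lie lower in CAR-Trem2-Ms.

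Peptidases, nucleases and phosphatases outside the cathepsins were 6 higher and 1 lower of 8 tested, with a median of 0.34 on counts but -0.58 on TPM. Napsa, the aspartic protease napsin A (chr7:44572380-44586862, plus strand), was at 18.4, 17.8 and 17.3 CPM across CAR-Ms against 47.3, 44.4 and 46.9 across CAR-Trem2-Ms (1.38 ± 0.09; edgeR, adjusted p = 3.45e-14). Dnase2a, the acid nuclease that digests DNA of engulfed cells (chr8:84908560-84922915, plus strand), was at 43.7, 38.7 and 44.3 CPM across CAR-Ms against 103, 100.1 and 95.3 across CAR-Trem2-Ms (1.24 ± 0.06), and 30.0% of its exon bases overlap Mast1 on the other strand. Both stayed higher on TPM, at 0.60 and 0.40. Entpd4b, a nucleotidase, was at 12.5, 12.9 and 13.8 CPM across CAR-Ms against 23.5, 25.6 and 24.2 across CAR-Trem2-Ms (0.90 ± 0.12), and it is a near-identical copy of Entpd4 (0.36 ± 0.10 on counts, -0.64 on TPM), so how reads were divided between them is uncertain.

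Tpp1, a tripeptidyl peptidase, and Acp2, an acid phosphatase, had 0.20 ± 0.04 and 0.31 ± 0.09 on counts and -0.52 and -0.71 on TPM. Lgmn, the asparaginyl endopeptidase that matures cathepsins and the member of this role with the most reads, was at 307, 309 and 314 CPM across CAR-Ms against 294, 281 and 304 across CAR-Trem2-Ms (-0.08 ± 0.03; edgeR, adjusted p = 0.0232). That small difference missed the threshold without CAR-Ms replicate 3 or CAR-Trem2-Ms replicate 2 (adjusted p = 0.0574 and 0.137), and its sign turned under upper quartile factors.

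Lysosomal membrane glycoproteins gave 4 higher and 4 lower calls of 9 tested. The most abundant of them differed little: Lamp1, the chief glycoprotein of the limiting membrane (chr8:13159161-13175338, plus strand), was at 877, 879.9 and 895 CPM across CAR-Ms against 797, 773 and 807 across CAR-Trem2-Ms (-0.16 ± 0.02). Cd68, the macrophage glycoprotein macrosialin (chr11:69664213-69666153, minus strand), was at 646, 629.9 and 641 CPM across CAR-Ms against 604, 599 and 602 across CAR-Trem2-Ms (-0.09 ± 0.02). Both were called lower with TMM factors and had positive values under upper quartile factors (0.08 and 0.15), so their direction rests on the scaling. Lamp2, Cd63, Laptm5 and Laptm4a had 0.27 to 0.63 on counts and -0.52 to -0.06 on TPM. Laptm4a, a small multispanning protein of late endosomes, was at 105, 102 and 110.1 CPM across CAR-Ms against 163, 164 and 165 across CAR-Trem2-Ms (0.63 ± 0.04).

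The larger differences in this role were decreases. Cd164, endolyn, a sialomucin that cycles to lysosomes (chr10:41519414-41531048, plus strand), was at 169, 169 and 167 CPM across CAR-Ms against 73.5, 62.4 and 68.8 across CAR-Trem2-Ms (-1.29 ± 0.05; edgeR, adjusted p = 1.92e-19). Litaf, an endosomal zinc-binding membrane protein (chr16:10959275-11066157, minus strand), was at 209, 214 and 215 CPM across CAR-Ms against 92.7, 97.3 and 103 across CAR-Trem2-Ms (-1.12 ± 0.04). Each sample of CAR-Trem2-Ms was below every sample of CAR-Ms for both, with levels 2.45 and 2.18 times higher in CAR-Ms. Scarb2, a multiligand receptor of the limiting membrane, did not pass (-0.04).

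Channels and transporters had 5 higher calls and 1 lower of 9 tested, with a median of 0.68 on counts and -0.45 on TPM. Their summed level was 547 ± 13.2 CPM in CAR-Ms against 828 ± 22.1 in CAR-Trem2-Ms, a ratio of 1.51, against 1.01 in TPM. Most of the difference in CPM lay in Tcirg1 alone, at 195 ± 7.60 in CAR-Ms against 415 ± 24.0 in CAR-Trem2-Ms. Mcoln1, the calcium-releasing channel TRPML1 (chr8:3500457-3515232, plus strand), was at 25.4, 26.8 and 25.7 CPM across CAR-Ms against 70.1, 74.9 and 72.8 across CAR-Trem2-Ms (1.48 ± 0.07; edgeR, adjusted p = 3.79e-17). Tcirg1, the a3 subunit of the proton pump (chr19:3896050-3907133, minus strand), was at 191, 203 and 189.8 CPM across CAR-Ms against 389, 418 and 437 across CAR-Trem2-Ms (1.09 ± 0.04). The pump acidifies the lumen, on which the hydrolases depend. Both were higher in every CAR-Trem2-Ms sample and stayed so on TPM (0.78 and 0.41).

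Abcb9, a lysosomal peptide transporter, had the largest fold of the lysosomal genes and few reads, at 0.202, 0.362 and 0.329 CPM across CAR-Ms against 1.25, 5.21 and 4.87 across CAR-Trem2-Ms (3.60 ± 0.53). With 3 to 6 reads per CAR-Ms sample it was the 1 gene of the 100 that had under 10 reads throughout a group, and it entered the test only through the group where it is high, so its fold is a description. Its value in CAR-Trem2-Ms replicate 1 was well below those of replicates 2 and 3, and the log2 fold change ranged from 3.31 to 4.02 as each sample was left out. Abca2, a lipid transporter, rose by 0.90, and Cln3, a membrane protein lost in juvenile Batten disease, was at 62.7 ± 2.24 CPM for CAR-Ms against 101 ± 2.22 for CAR-Trem2-Ms (0.68 ± 0.05; -0.20 on TPM). Of the exon bases of Cln3, 7.65% overlap Apobr on the other strand. The sialic acid exporter Slc17a5, the cystine exporter Ctns and Mfsd8 did not pass (-0.06, -0.12 and -0.12).

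Npc1, the transporter that moves cholesterol out of the lysosome (chr18:12189692-12236400, minus strand), was the sole lower gene of that role, at 143, 137 and 131 CPM across CAR-Ms against 72.8, 62.3 and 76.7 across CAR-Trem2-Ms (-0.95 ± 0.06). Its partner Npc2 went the other way. The pairs whose ratios are given here and below were chosen because their genes went opposite ways. A difference in such a ratio follows from that choice and is a description only. The ratio of Npc2 to Npc1 reads within a sample was 1.18 to 1.33 in CAR-Ms against 3.85 to 4.59 in CAR-Trem2-Ms, a 3.44-fold difference between the means. On TPM the ratio differed 3.43-fold, and with folds corrected for GC content and length 2.196-fold.

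In the mannose 6-phosphate pathway, 3 of 9 genes were higher and 4 lower. The receptors fell. M6pr, the cation-dependent receptor (chr6:122308720-122317680, plus strand), was at 444, 429 and 437 CPM across CAR-Ms against 229.6, 228 and 228 across CAR-Trem2-Ms (-0.93 ± 0.03; edgeR, adjusted p = 1.16e-21). Igf2r, the cation-independent receptor (chr17:12682406-12769664, minus strand), was at 133, 142 and 141 CPM across CAR-Ms against 74.7, 75.1 and 77.4 across CAR-Trem2-Ms (-0.87 ± 0.05). Sort1, sortilin, a receptor for cargo without the tag, fell by 0.73 on the log2 scale. The receptors were thus lower in every CAR-Trem2-Ms sample, and their folds were negative on TPM too (-1.61, -1.45 and -0.98).

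Of the GGA adaptors, which link receptors to clathrin, 2 of 3 rose. Gga1 (chr15:78877190-78894585, plus strand) was at 35.1, 34.8 and 40.2 CPM across CAR-Ms against 97.1, 107 and 114 across CAR-Trem2-Ms (1.53 ± 0.07), and Gga3 at 25.1, 23.7 and 22.1 CPM across CAR-Ms against 65.4, 65.6 and 66.8 across CAR-Trem2-Ms (1.48 ± 0.08). Their levels were 2.89 and 2.79 times those of CAR-Ms, with no overlap, while Gga2 did not pass (0.06). Gga1 reads per M6pr read were 0.0839 ± 0.00695 in CAR-Ms against 0.464 ± 0.0387 in CAR-Trem2-Ms (SD, n = 3), a 5.53-fold difference, or 3.15-fold with folds corrected for GC content and length.

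Within the GlcNAc-1-phosphotransferase that makes the tag, the subunits differed in direction. Gnptab, which encodes the catalytic α and β subunits (chr10:88379132-88447329, plus strand), was at 129.6, 127 and 127 CPM across CAR-Ms against 71.6, 79.4 and 74.9 across CAR-Trem2-Ms (-0.76 ± 0.05). Gnptg, the γ subunit (chr17:25233331-25240124, minus strand), was at 12.8, 13.1 and 13.04 CPM across CAR-Ms against 29.4, 31.7 and 27.4 across CAR-Trem2-Ms (1.18 ± 0.11), but 49.5% of its exon bases overlap Unkl on the other strand, and without strand in the counts the reads of the 2 genes cannot be told apart. The ratio of Gnptg to Gnptab reads rose from 0.102 ± 0.00265 to 0.392 ± 0.0232 (SD, n = 3), and with corrected folds it differed 2.63-fold. Nagpa, which uncovers the tag, did not pass (-0.03), but it was called lower after correction for GC content and length (-0.72).

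AP-1, the adaptor complex of clathrin coats on the trans-Golgi network and endosomes, gave 3 higher and 4 lower calls of 8. Its 2 alternative γ subunits were opposed. Ap1g1, the γ1 subunit (chr8:109778554-109864204, plus strand), was at 205, 212 and 212 CPM across CAR-Ms against 93.9, 92.2 and 89.8 across CAR-Trem2-Ms (-1.19 ± 0.04), and Ap1g2, the γ2 subunit (chr14:55098575-55106593, minus strand), at 30.2, 33.3 and 33.5 CPM across CAR-Ms against 75.2, 75.9 and 81.5 across CAR-Trem2-Ms (1.26 ± 0.07). In reads, the ratio of Ap1g2 to Ap1g1 was 0.147 to 0.158 in CAR-Ms against 0.801 to 0.908 in CAR-Trem2-Ms, a 5.47-fold difference in the means. Per length, in TPM, Ap1g1 exceeded Ap1g2 in CAR-Ms (ratio 0.262 ± 0.00999) and Ap1g2 exceeded Ap1g1 in CAR-Trem2-Ms (1.62 ± 0.0568). This pair too was chosen for its opposite directions, so the distance between the ratios of the 2 groups describes the pair and adds no support. With folds corrected for GC content and length the ratio differed 2.73-fold. Of the exon bases of Ap1g2, 9.88% overlap Thtpa on the other strand.

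Other AP-1 subunits changed less. Ap1s3, a σ subunit, was at 32.9, 35.7 and 30.6 CPM across CAR-Ms against 15.3, 15.0 and 21.4 across CAR-Trem2-Ms (-0.93 ± 0.12), Ap1s1 fell by 0.52 and Ap1m1 by 0.40 on the log2 scale. Ap1b1 had 0.29 ± 0.06 on counts and -0.37 on TPM, and Ap1s2 did not pass (0.06). Ap1m2, at 0.751 ± 0.0942 CPM for CAR-Ms against 1.497 ± 0.226 for CAR-Trem2-Ms, was called on the threshold (edgeR, adjusted p = 0.0489) and lost the call in each of the 6 fits that left out a sample, at adjusted p 0.0554 to 0.128.

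AP-3, which sends membrane proteins such as LAMPs to lysosomes, had 2 higher and 1 lower of 6 tested. Ap3d1, the δ subunit, was at 119.9, 131 and 123 CPM across CAR-Ms against 188, 184 and 171 across CAR-Trem2-Ms (0.53 ± 0.04; -0.14 on TPM). Ap3b1, a β subunit, was at 99.7, 98.9 and 95.8 CPM across CAR-Ms against 111, 106 and 102 across CAR-Trem2-Ms (0.11 ± 0.05; -0.55 on TPM), and this call was lost without any of CAR-Ms replicates 1, 2 and 3 or CAR-Trem2-Ms replicate 1, at adjusted p 0.0747 to 0.192. Ap3m1, a μ subunit, was at 116, 126 and 122 CPM across CAR-Ms against 104, 87.1 and 93.7 across CAR-Trem2-Ms (-0.35 ± 0.05), with 29.8% of its exon bases shared with Vcl on the other strand. Ap3s1, Ap3s2 and Ap3m2 did not pass (0.17, -0.05 and -0.02).

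AP-4, a Golgi adaptor that works without clathrin, had 3 of 4 subunits lower. Ap4m1 was at 48.8, 42.0 and 42.6 CPM across CAR-Ms against 27.1, 28.5 and 26.5 across CAR-Trem2-Ms (-0.70 ± 0.09), Ap4e1 at 38.5, 39.4 and 39.3 CPM across CAR-Ms against 24.8, 23.5 and 24.8 across CAR-Trem2-Ms (-0.68 ± 0.09) and Ap4b1 at 63.4, 54.9 and 52.8 CPM across CAR-Ms against 40.7, 45.1 and 42.2 across CAR-Trem2-Ms (-0.42 ± 0.08). The small subunit Ap4s1, at 7.35, 9.89 and 8.56 CPM across CAR-Ms against 10.3, 12.5 and 12.5 across CAR-Trem2-Ms, had 0.44 ± 0.16 on counts (edgeR, adjusted p = 0.0144) and -0.30 on TPM, and missed the threshold without CAR-Ms replicate 1 or CAR-Trem2-Ms replicate 3 (adjusted p = 0.0913 and 0.0507). Exons of Ap4m1 overlap Taf6 and Mcm7 on the other strand, and 82.4% of those of Ap4b1 overlap the readthrough gene Gm43064.

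Clathrin, whose triskelions form the coat, was lower in 2 of its 3 genes. Cltc, the heavy chain (chr11:86694351-86757565, minus strand), was at 711, 726 and 717 CPM across CAR-Ms against 358, 337 and 358 across CAR-Trem2-Ms (-1.03 ± 0.03; edgeR, adjusted p = 1.40e-23). Cltb, a light chain (chr13:54592401-54611344, minus strand), was at 86.3, 90.2 and 82.5 CPM across CAR-Ms against 39.9, 39.4 and 41.1 across CAR-Trem2-Ms (-1.10 ± 0.06), while Clta, the other light chain, did not pass, at 209, 218 and 219 CPM across CAR-Ms against 209, 217 and 207 across CAR-Trem2-Ms (-0.03). The summed level of the 3 was 1019 ± 14.1 CPM in CAR-Ms against 602 ± 7.47 in CAR-Trem2-Ms, a ratio of 0.591. On TPM the ratio was 0.496, and Clta was called lower there (-0.73) and after correction for GC content and length (-0.47).

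**Figure D4:**
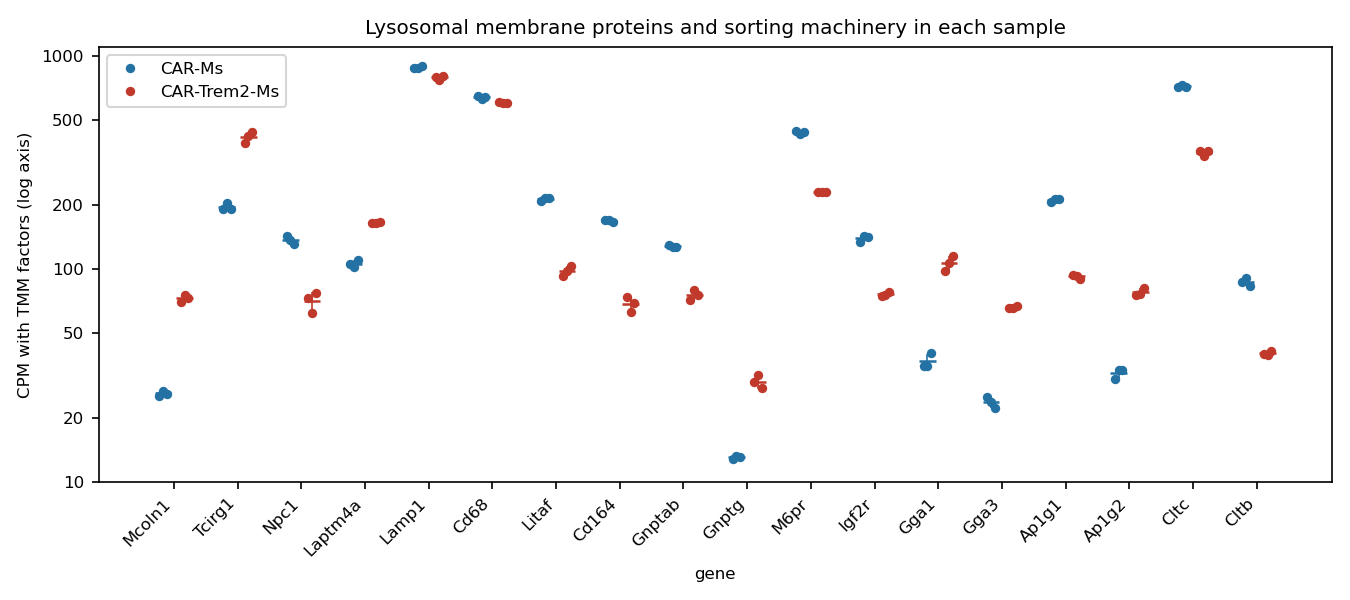
CPM with TMM factors on a log axis for 18 lysosomal membrane and sorting genes, with 1 point per sample, a horizontal line at the mean and a vertical line of ± 1 SD (n = 3 per group). Mcoln1, Tcirg1, Gnptg, Gga1, Gga3 and Ap1g2 lie higher in CAR-Trem2-Ms, and Npc1, Litaf, Cd164, Gnptab, M6pr, Igf2r, Ap1g1, Cltc and Cltb lower; Laptm4a lies slightly lower in CAR-Trem2-Ms on TPM, and Lamp1 and Cd68 turn higher under upper quartile factors.

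The remaining genes include proteins that bind or regulate the proton pump. Wdr7 (chr18:63708685-63989776, plus strand) was at 42.8, 43.5 and 47.7 CPM across CAR-Ms against 16.0, 18.1 and 14.9 across CAR-Trem2-Ms (-1.46 ± 0.10), and its partner Dmxl1 at 133, 134 and 129 CPM across CAR-Ms against 67.4, 75.9 and 75.2 across CAR-Trem2-Ms (-0.86 ± 0.05). Dmxl2, at 72.2, 74.3 and 78.5 CPM across CAR-Ms against 65.8, 67.2 and 69.1 across CAR-Trem2-Ms, was called lower by a small margin (-0.16 ± 0.06; edgeR, adjusted p = 0.0166), was not called without CAR-Ms replicate 3 (adjusted p = 0.0853) and had a positive value under upper quartile factors. Ncoa7 did not pass (-0.04). Ncoa7 and Dmxl2 had positive values after correction for GC content and length (0.60 and 0.28).

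Gm49369 and Gm43064 are readthrough genes whose exons are mostly those of Ctsd (79.0%) and Ap4b1 (76.2%), so their reads are uncertain. Gm49369 was called higher (1.58 ± 0.53) and Gm43064 lower (-1.15 ± 0.36), although the groups overlapped in CPM for both. Without CAR-Trem2-Ms replicate 1 their values were 0.91 and -0.68, and the Gm49369 call was lost (adjusted p = 0.190). It was also lost without CAR-Ms replicate 1 (adjusted p = 0.0578), and that of Gm43064 without CAR-Ms replicate 2 (adjusted p = 0.0522).

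Base composition moved with the calls. The median GC content of the longest transcript was 53.8% for the 40 higher genes, 48.3% for the 38 lower and 49.8% for the 22 that did not pass. Over all tested genes it was 52.4% for those called higher and 47.4% for those called lower, so the same gradient ran through the whole table. Across the 100 genes, Spearman's rho between fold and GC was 0.48 and between fold and length -0.22, as descriptions over genes that share the 6 libraries. Over 11382 genes the values were 0.28 and -0.31.

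After correction of the folds for GC content and length by loess, 38 lysosomal genes were higher and 44 lower, against 38.1% and 41.2% of all genes. The decreases in Cltc, Npc1 and Ap1g1 became smaller, at -0.38, -0.40 and -0.53, and those in Cd164, Litaf and Cltb stayed near their size, at -1.15, -1.09 and -1.35. The median fell in size from 0.75 to 0.57 for the 40 higher genes and from -0.80 to -0.57 for the 38 lower. The fold became smaller by more than 1.5 times, or turned, for 15 of the higher genes and 13 of the lower. Mcoln1 and Gga3 kept their size (1.40 and 1.52), while Naglu had 1.03, Gga1 0.85, Tcirg1 0.53, Gaa 0.32 and Psap 0.26. Laptm5, Fuca1, Ap1b1, Ap4s1 and Ap1m2 were no longer called (0.03, 0.08, 0.11, 0.07 and 0.89). A call on the same side was kept by 31 of the 40 higher and 36 of the 38 lower genes. Some genes that had not passed were called here with their sign kept. Among them, Galc and Gga2 were higher (0.48 and 0.28), and Nagpa and Clta lower (-0.72 and -0.47). Ap3m1 and Dmxl2 turned to the higher side (0.32 and 0.28), and Hexa, Smpd1 and Cd63 to the lower (-0.30, -0.20 and -0.13). The 18 genes that had a positive fold on every scale kept their sign here, 17 of them with a call and Gm49369 without (0.74; adjusted p = 0.205), and the sign held for 32 of the 33 lower genes, the exception being Ap3m1. Whether base composition, the mitochondrial share or RNA quality had a part in the differences was not tested.

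**Figure D5:**
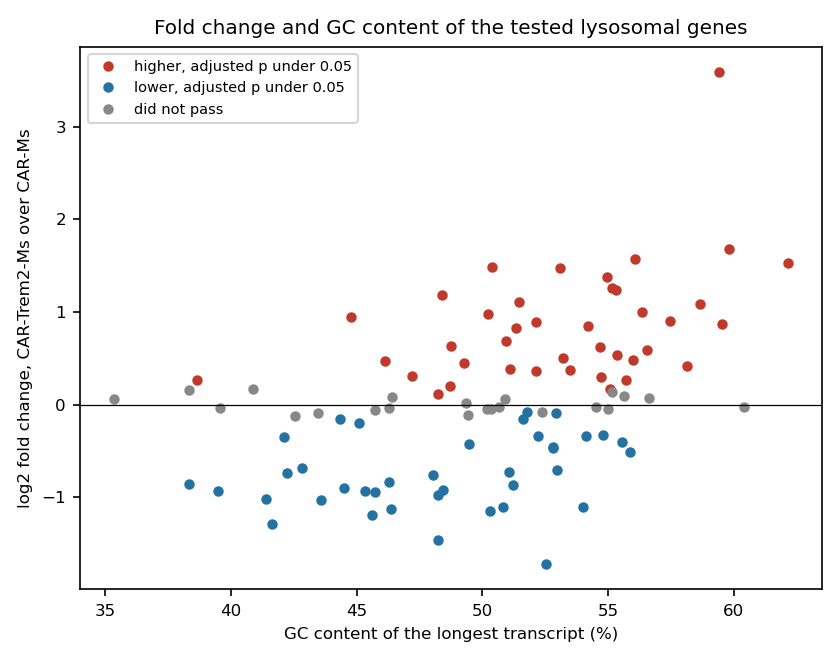
Log2 fold change of CAR-Trem2-Ms over CAR-Ms (edgeR, TMM factors) against the GC content of the longest transcript, in percent, for the 100 tested lysosomal genes, coloured by call. Genes called higher have a median GC content of 53.8% and genes called lower 48.3%, and on log2(TPM + 1) 20 of those called higher lie below 0.

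Neighbouring lysosome genes were counted from the same fit. Beside these counts, 40.9% of all tested genes were higher and 40.1% lower. On TPM the shares of all genes tested were 17.5% and 64.2%. Of the rows of the pathway that were set aside, 9 of 12 tested cathepsins were higher and 1 lower, with a median of 0.52 on counts and -0.14 on TPM; Ctso rose by 2.35 and Ctsd by 0.96. Of 8 tested pump subunits 5 were higher and 3 lower (median 0.58, and -0.15 on TPM), with Atp6v0d2 at 1.73 and Atp6v0a1 at 0.94. Slc11a1, an iron and manganese exporter of phagosomes, rose by 1.26, and its relative Slc11a2 fell by 0.96. Called on TPM were 2 cathepsins higher and 6 lower, and 3 pump subunits higher and 5 lower.

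Outside that pathway, 11 of 13 tested luminal proteins were higher and 2 lower, with a median of 0.83 on counts and 0.13 on TPM. Grn, progranulin, was at 345, 347 and 355 CPM across CAR-Ms against 2007, 1992 and 2084 across CAR-Trem2-Ms (2.54 ± 0.02), and Pld4, an exonuclease, had 2.58 ± 0.07. Of 17 tested membrane proteins outside the pathway 12 were higher and 2 lower (median 0.64, and -0.04 on TPM), led by the peptide and histidine transporter Slc15a3 (2.41 ± 0.13) and the cysteine transporter Mfsd12 (2.01 ± 0.05). Called on TPM were 6 of the luminal proteins higher and 4 lower, and 6 of the membrane proteins higher and 7 lower. These lists had larger medians on counts than the 100 genes described above (-0.03), a difference that was not tested.

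Machinery that acts on the lysosome was mixed. Of 12 tested genes of BORC and Arl8, which drive lysosomes along microtubules, 8 were higher and 1 lower (median 0.83, and 0.13 on TPM), with Borcs6 at 1.62 and Plekhm2 at 1.31. Of 8 retromer genes, which retrieve receptors from endosomes, 5 were lower and 1 higher, with Vps35 at 363, 357 and 348 CPM across CAR-Ms against 139.7, 129.9 and 134 across CAR-Trem2-Ms (-1.40 ± 0.04) and Vps26b at -0.88. HOPS and CORVET, the tethers that fuse endosomes with lysosomes, had 2 higher and 3 lower of 8 (Vps16 1.32, Tgfbrap1 -1.14). On TPM 4 genes of BORC and Arl8 were called higher and 5 lower. All 8 retromer genes were called lower there, and of the tethers 1 was higher and 6 lower.

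Regulators of lysosomal transcription and signalling were also split. Among the factors that bind the element shown above, Tfeb was at 20.2, 17.8 and 20.8 CPM across CAR-Ms against 16.1, 13.2 and 16.7 across CAR-Trem2-Ms (-0.35 ± 0.12), Tfe3 fell by 0.33 and Mitf had 0.73 on counts and 0.05 on TPM, while Tfec had 0 to 5 reads. Of the 18 tested genes of Ragulator, the Rag GTPases and mTORC1, which sense nutrients on the lysosome, 9 were higher and 9 lower. On TPM 3 of them were called higher and 12 lower. Rraga, a Rag GTPase, was at 16.0, 17.97 and 16.5 CPM across CAR-Ms against 105, 102 and 102 across CAR-Trem2-Ms (2.61 ± 0.07), and Fnip2, a partner of folliculin, at 588, 599 and 589 CPM across CAR-Ms against 163, 167 and 163 across CAR-Trem2-Ms (-1.85 ± 0.03).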

How the data were processed

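Gene expression was measured in 3 CAR-Ms and 3 CAR-Trem2-Ms samples. Per the labels' protocols, Trizol served for RNA extraction and a SMARTER mRNA-Seq kit for library preparation. Per the file headers, the authors deposited raw read counts per gene and TPM values for each sample, and every such column was used. The genome was mm10, and the tools named were StringTie 1.3.1, HISAT2, Bowtie2 2.2.8 and fastp 0.18.0, per the submitters' processing notes. Not given in the sources used here are how reads were counted, on which annotation, with or without strand, and the HISAT2 release, so overlapping genes cannot be told apart. TPM values sum to the same total in each library.

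From the deposited counts, edgeR 4.0.16 (R 4.3.3) gave 2-sided glmQLFTest p-values (TMM factors, filterByExpr at a minimum of 10 reads), with Benjamini-Hochberg adjustment over 11402 genes. Alternatives were RLE, upper quartile and total-count scaling, no filter, DESeq2 1.42.0, a stricter filter (10 reads in each sample of either group), limma 3.58.1 (voom, and trend on log2(TPM + 1) for genes with TPM of at least 1 in 3 samples), a replicate block, no mitochondrially encoded genes, correction for GC content and length, an adjusted p under 0.01, a log2 fold of at least 1, and each sample left out. The fit was tested on simulated counts of 11402 genes, where the lowest share of changed genes recovered was 64%. Few genes were changed there, equally in both directions, so it cannot check the scaling where most genes differ.

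Total counts were 9.80 to 15.9 (in 1e6). Replicates of a group differed by more than sampling noise (chi-square per degree of freedom 2.19 to 3.34), so each was counted as 1 sample. Coordinates come from GENCODE M21 (GRCm38) and promoters from RefSeq (GRCm38.p6).

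The members and lists were chosen with earlier results of these data known. Values in every sample are given, per role, for up to 3 called genes with at least 50 reads and no overlap that had the largest fold, and for the gene with the highest CPM. From each other list, the 2 called genes of largest fold are named, given 50 reads or more. The values of some genes are not reported here. Some further values were added where a neighbouring result needed them.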

Additional observations from a re-analysis of the deposited data

How the results depend on the processing

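Calls were recomputed with 1 choice changed at a time, and the counts of called genes stayed within 1.5 times the reported ones except on TPM and at a fold threshold. On log2(TPM + 1) with limma-trend, 1890 genes were higher and 6946 lower in all, and 13 lysosomal genes higher and 75 lower. With a log2 fold change of at least 1 required, 13 lysosomal genes were higher and 10 lower. The summed level had a ratio of 0.898 with total-count scaling and 0.625 in TPM. As each sample was left out in turn, all called genes ranged from 8911 to 9237 (4497 to 4662 higher, 4414 to 4575 lower), lysosomal genes from 35 to 38 higher and 37 to 38 lower, and the summed ratio from 0.975 to 0.984. Samples with the same replicate number did not deviate together (correlations 0.03, -0.03 and 0.03 over genes). These values cannot tell whether such samples share an animal, a culture or a batch. A replicate block gave 9188 calls in all, 39 higher and 38 lower lysosomal genes, and lost Ap1m2 (edgeR, adjusted p = 0.0846). Single genes that were called in the reported fit, the alternative or both changed sign, listed here for the genes that are reported, for which the cause was not tested beyond the shift of the median that each scale carries; genes called in neither fit could change sign too and are not listed. On log2(TPM + 1) these were Neu1 -0.18, Glb1 -0.29, Fuca1 -0.31, Hexa -0.53, Galc -0.61, Hyal2 -0.57, Arsa -0.0787, Galns -0.59, Sumf1 -0.68, Psap -0.0716, Smpd1 -0.39, Ppt2 -0.65, Entpd4 -0.64, Acp2 -0.71, Tpp1 -0.52, Laptm4a -0.0575, Laptm5 -0.36, Cd63 -0.35, Lamp2 -0.52, Cln3 -0.20, Gga2 -0.60, Ap1b1 -0.37, Ap1s2 -0.76, Ap3d1 -0.14, Ap3s1 -0.45, Ap3b1 -0.55 and Ap4s1 -0.30. With GC and length correction they were Hexa -0.30, Galns -0.35, Smpd1 -0.20, Ppt2 -0.48, Cd63 -0.13, Scarb2 0.34, Ap3s2 0.33, Ap3m1 0.32, Ncoa7 0.60 and Dmxl2 0.28. Upper quartile factors, which moved the median of all genes to 0.26, gave Hgsnat 0.18, Asah1 0.14, Ppt1 0.0300, Lgmn 0.15, Scarb2 0.19, Cd68 0.15, Lamp1 0.0752, Nagpa 0.20, Clta 0.20 and Dmxl2 0.0772. Total-count scaling, with a median of -0.10, gave Ap3b1 -0.014. limma-voom and the fit without mitochondrially encoded genes kept the side of all 100 genes, and DESeq2 lost Ap1m2, Ap3b1 and Gm43064.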
